A study of Mus musculus with 12 samples.

Results

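The 9 genes described here, Cs, Idh3a, Idh3b, Idh3g, Ogdh, Dlst, Suclg1, Sdha and Mdh2, encode enzymes of the tricarboxylic acid (TCA) cycle. They were chosen by name, with earlier results of these data known. A gene is read by the array probe set whose annotation gives that gene symbol and no other. Of the 9 genes, 9 had exactly 1 such probe set, among 18820 genes read in this way. All 9 also passed a filter on dim signals, which left 12961 genes to be tested.

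Gene expression was measured on 12 arrays of sorted mouse B lymphoma cells, with 3 arrays in each of 4 groups. The cells were primary cultures of tumours from l-MYC;B1-8f mice of the strain C57BL/6J x BALB/c, numbered 2567, 2646 and 2676, and each tumour gave 1 array in every group. All cells therefore share the MYC transgene and the B1-8f heavy chain allele, which Cre can delete, and all were sorted after 4 days of mixed culture. BCR-positive cells kept the B cell receptor (BCR) and were not treated. BCR-negative cells had lost it after transduction with TAT-Cre, a cell-permeable Cre recombinase, and were not treated. CHIR99021-treated BCR-negative cells came from mixed cultures that also held CHIR99021, an inhibitor of the kinase GSK3, at a dose that is not given in the sources used here. BCR-independent cells were untreated clones that arose from BCR-negative tumours in long culture, and their cultures also held BCR-positive cells of that tumour. The clones were clone 8 of tumour 2567, clone 7 of tumour 2646 and clone 1 of tumour 2676, so a tumour is represented by 1 clone. A mark, (2), ends the titles of 4 arrays and is not explained there. Tumours 2646 and 2676 carry it, each on its BCR-positive and its untreated BCR-negative array, and 8 arrays have no mark.

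The TCA cycle runs in the mitochondrial matrix, oxidises the acetyl group of acetyl-CoA and passes electrons to the respiratory chain. Citrate synthase (Cs) feeds acetyl-CoA into the cycle. NAD-dependent isocitrate dehydrogenase, built of the catalytic subunit Idh3a with Idh3b and Idh3g, and the 2-oxoglutarate dehydrogenase complex, with Ogdh and Dlst among its parts, carry out the oxidative steps that release carbon dioxide. In growing B cells and in MYC-driven tumours the cycle also supplies citrate and other precursors for synthesis.

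Values are log2 signals, so a difference of 1 is a doubling, and differences are given as log2 differences from a limma fit of group and tumour with n = 3 arrays per group. A gene was called when its p, adjusted by the Benjamini-Hochberg method over all genes tested, was under 0.05. Medians of the arrays lay between 3.32 and 3.44, and on no array did a member lie below the 81.1th percentile of that array's probe sets, the lowest value being that of Suclg1. The labels were checked with Ighv1-72, the V segment that the B1-8f allele uses, which read 9.62 ± 0.30 in BCR-positive and 6.44 ± 0.57 in BCR-negative cells (SD, n = 3), a change of -3.18 (limma adjusted p = 0.0241). Under CHIR99021 it read 5.77 ± 0.73, and the clones had 4.04 ± 0.28 (SD, n = 3), so both BCR-negative groups kept more of this signal than the clones, with no overlap of arrays. Among B lineage markers, Cd79a, Cd79b, Pax5 and Ebf1 exceeded the array median on 12 of 12 arrays and Ms4a1 on 0. Of 6 T cell markers, Cd3e, Cd3g, Cd3d and Cd4 exceeded it on 0 of 12 arrays, Thy1 on 10 and Cd8a on 12. Of 6 myeloid markers, Lyz2, Adgre1 and Cd14 exceeded it on 0, Csf1r on 2, Fcgr3 on 6 and Itgam on 12. Of 5 fibroblast markers, Pdgfrb and Dcn exceeded it on 0, Col3a1 on 5 and Col1a1 and Col1a2 on 12. Among erythroid markers, Klf1 and Alas2 exceeded it on 0 and Epor on 10.

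RefSeq promoter windows (assembly GRCm38.p6, 250 bases before to 50 after a gene's start) were searched because 8 of the 9 members read higher together under CHIR99021. They matched 8 of the 9 members by symbol, in 13 windows, 6 of them starts of Ogdh, and the member without an entry was Idh3a. The upstream bases of 3 members are shown: Cs, which had the second largest difference under CHIR99021, Idh3g, the member that read lower, and Sdha, whose single window holds 3 motif matches. Capitals mark a match to CCGGAAG (bound by GABP and other ETS factors) in Idh3g and to the NRF1 motif (GCGC, any base, TGCGC, here read on the other strand) in Sdha; both strands were searched, and Cs held no match to the motifs searched.
Cs, chr10:128337477-128337726, plus strand: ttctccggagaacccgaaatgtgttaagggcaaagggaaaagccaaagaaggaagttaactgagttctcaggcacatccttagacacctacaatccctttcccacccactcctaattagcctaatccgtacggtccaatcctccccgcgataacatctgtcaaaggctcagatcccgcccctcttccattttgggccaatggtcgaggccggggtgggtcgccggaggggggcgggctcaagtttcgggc
Idh3g, chrX:73786898-73787147, minus strand: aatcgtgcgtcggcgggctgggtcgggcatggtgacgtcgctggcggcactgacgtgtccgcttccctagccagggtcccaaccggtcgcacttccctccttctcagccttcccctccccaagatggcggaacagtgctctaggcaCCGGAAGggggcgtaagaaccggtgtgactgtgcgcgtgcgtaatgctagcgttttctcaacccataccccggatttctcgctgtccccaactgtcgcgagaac
Sdha, chr13:74350241-74350490, minus strand: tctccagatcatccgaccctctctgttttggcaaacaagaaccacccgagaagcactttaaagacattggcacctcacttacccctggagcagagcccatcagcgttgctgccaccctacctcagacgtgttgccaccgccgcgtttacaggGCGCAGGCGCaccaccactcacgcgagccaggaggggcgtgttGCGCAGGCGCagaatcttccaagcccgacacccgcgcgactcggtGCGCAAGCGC
The NRF1 motif lay in the window of 1 member, Sdha, and in 4.6% of all 32851 windows. CCGGAAG lay in windows of Idh3b, Idh3g and Dlst and in 8.86% of all windows. The E-box CACGTG, which MYC binds, lay in 3 windows of Ogdh, some of which overlap, and in 7.15% of all windows. GTAAACA, bound by FOXO factors, lay in 0 of the 13 member windows and in 3.65% of all. No matches to different motifs overlapped in these windows. The bases G and C made up a median of 52.7% over all windows and between 49.3% and 72.3% of each member window. The shares of windows with a motif were not matched for this. A match is a run of letters and not a measured site.

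The effect of CHIR99021 on cells without the receptor was read from treated against untreated BCR-negative arrays. Idh3a rose by 0.64 on the log2 scale under CHIR99021 and was the 1 member of 9 that was called, against 1.91% of all genes tested, or 1.06% counting higher genes alone. Another 7 members read higher in all 3 tumours without passing the test, and Idh3g read lower in all 3, as 15.8% of all genes did. The median of the 9 differences was 0.24, beside 0.026 over all genes tested. Members higher in all 3 tumours numbered 8 of 9, against 25.7% of all genes, and 5 of 9 had an unadjusted p under 0.05 with a higher value, against 10.4%. Such shares are descriptions, since the members were chosen with earlier results of these data known. The members are also bright, while the genes tested include dimmer ones. In bulk RNA, a higher share of cells that express a gene and more of its RNA per cell cannot be told apart.

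**Figure D1:**
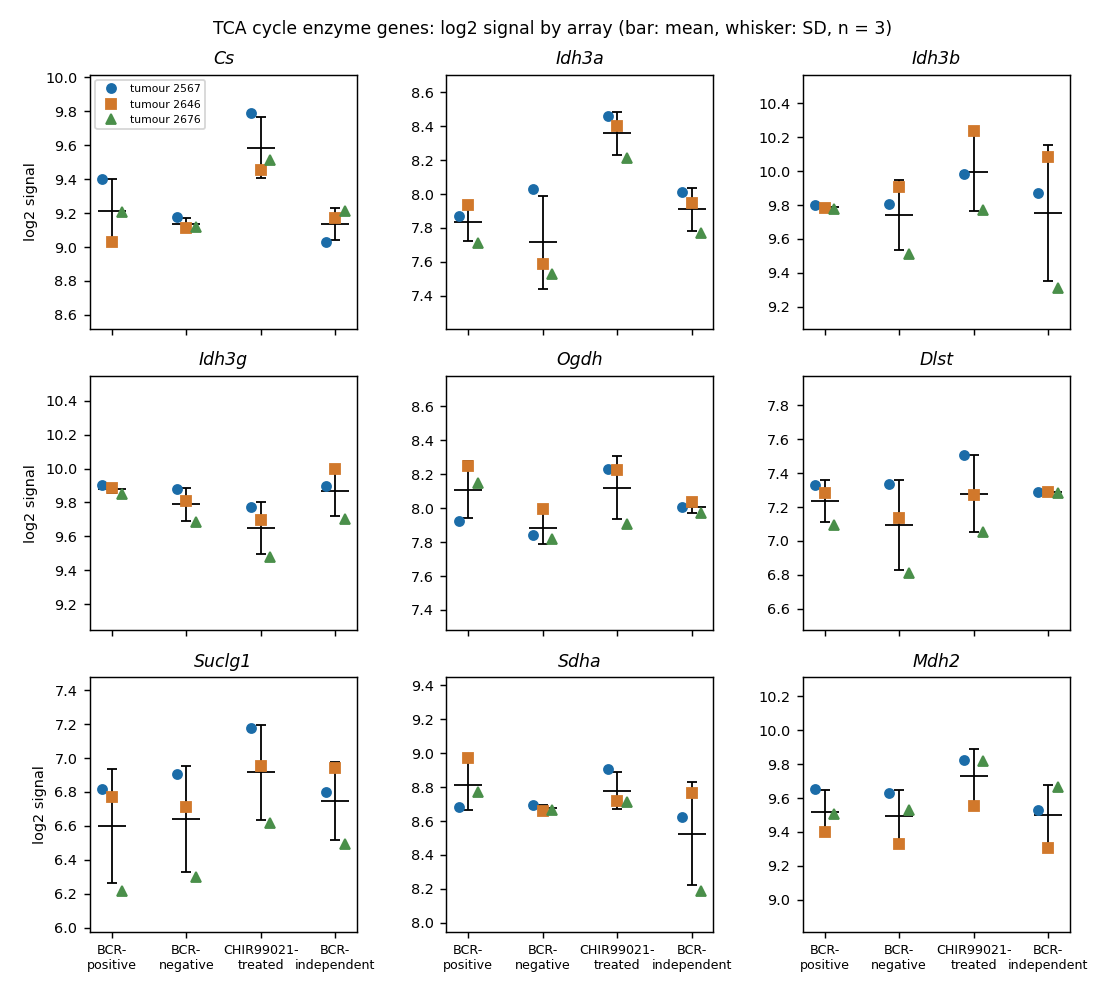
Log2 signal of the 9 TCA cycle enzyme genes (vertical axes, each spanning 1.5 log2 units) in the 4 groups (horizontal axis), with 1 symbol per array and tumour, the group mean as a bar and the SD as a whisker (n = 3). The 3 treated arrays of Idh3a, between 8.21 and 8.46, lie above the 9 other arrays, and Idh3g is lowest in the treated group within every tumour.

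Citrate synthase, which joins acetyl-CoA to oxaloacetate, read 9.18, 9.11 and 9.12 in untreated BCR-negative cells of tumours 2567, 2646 and 2676, and 9.79, 9.46 and 9.51 in treated cells. The 3 treated arrays lay above all untreated BCR-negative arrays. Cs differed by 0.45 (SE 0.11, 95% interval 0.20 to 0.70, limma adjusted p = 0.0793) and missed the threshold. A second probe set, annotated to both Csl and Cs and so outside the choice of members, read higher in treated cells by 0.22, 0.38 and 0.45 in the 3 tumours.

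Idh3a, the catalytic subunit of isocitrate dehydrogenase, read 8.03, 7.59 and 7.53 in untreated and 8.46, 8.40 and 8.21 in treated BCR-negative cells. No treated array overlapped an untreated array of any group. The change was 0.64 (SE 0.10, 95% interval 0.42 to 0.87, limma adjusted p = 0.0268), with 0.43, 0.81 and 0.69 in the 3 tumours. Idh3b, a further subunit of the same enzyme, read 9.81, 9.91 and 9.51 in untreated and 9.98, 10.24 and 9.77 in treated cells. These groups overlapped, and the difference of 0.26 (SE 0.13, limma adjusted p = 0.362) did not pass. Idh3g, which like Idh3b has a regulatory part in the enzyme, read 9.88, 9.81 and 9.69 in untreated and 9.77, 9.70 and 9.48 in treated cells. Within every tumour the treated array was the lower, and the difference was -0.14 (SE 0.082, 95% interval -0.32 to 0.044, limma adjusted p = 0.451).

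The shift of Idh3a exceeded that of Idh3g within the same arrays, a comparison that was chosen after the values were seen. A shift common to all genes of an array cancels in it, while scaling that depends on the signal level does not. The excess was 0.54, 0.92 and 0.90 in the 3 tumours (0.78 ± 0.22, SD, n = 3). For Idh3b over Idh3g it was 0.28, 0.44 and 0.47 (0.40 ± 0.10, SD, n = 3). An exact two-sided sign-flip permutation test gave p = 0.25 for each, the smallest that 3 pairs allow.

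Ogdh, the subunit that decarboxylates 2-oxoglutarate, read 7.84, 7.99 and 7.82 in untreated and 8.23, 8.23 and 7.91 in treated cells. The treated array of tumour 2676 lay below the untreated array of tumour 2646, so the groups overlapped, and the difference of 0.24 (SE 0.10, limma adjusted p = 0.285) did not pass. Dlst, the succinyltransferase core of the same complex, read 7.34, 7.13 and 6.81 in untreated and 7.51, 7.27 and 7.05 in treated cells. Its difference of 0.18 (SE 0.10, limma adjusted p = 0.431) was smaller than the spread between tumours within either group. Suclg1, the subunit common to the forms of succinyl-CoA ligase, read 6.91, 6.71 and 6.30 in untreated and 7.18, 6.96 and 6.62 in treated cells. The tumours stood apart by more than the treatment did, and the difference of 0.28 (SE 0.093, limma adjusted p = 0.171) was alike in the 3 tumours, at 0.27, 0.24 and 0.32. Sdha, the flavoprotein of succinate dehydrogenase, which is also complex II of the respiratory chain, read between 8.66 and 8.70 in untreated and between 8.71 and 8.91 in treated cells. The groups did not overlap, yet the difference was 0.11 (SE 0.13, limma adjusted p = 0.781), with 0.21, 0.059 and 0.046 in the 3 tumours. It was 0.053 without tumour 2567, 0.046 with array weights, 0.028 with quantile normalization and 0.27 once the title mark was a term. Mdh2, the malate dehydrogenase that closes the cycle, read 9.63, 9.33 and 9.53 in untreated and 9.82, 9.55 and 9.82 in treated cells, a difference of 0.24 (SE 0.081, limma adjusted p = 0.180). Cs, Idh3a and Sdha, 3 of 9 members, were without overlap and higher in treated cells, against 5.9% of all genes.

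**Figure D2:**
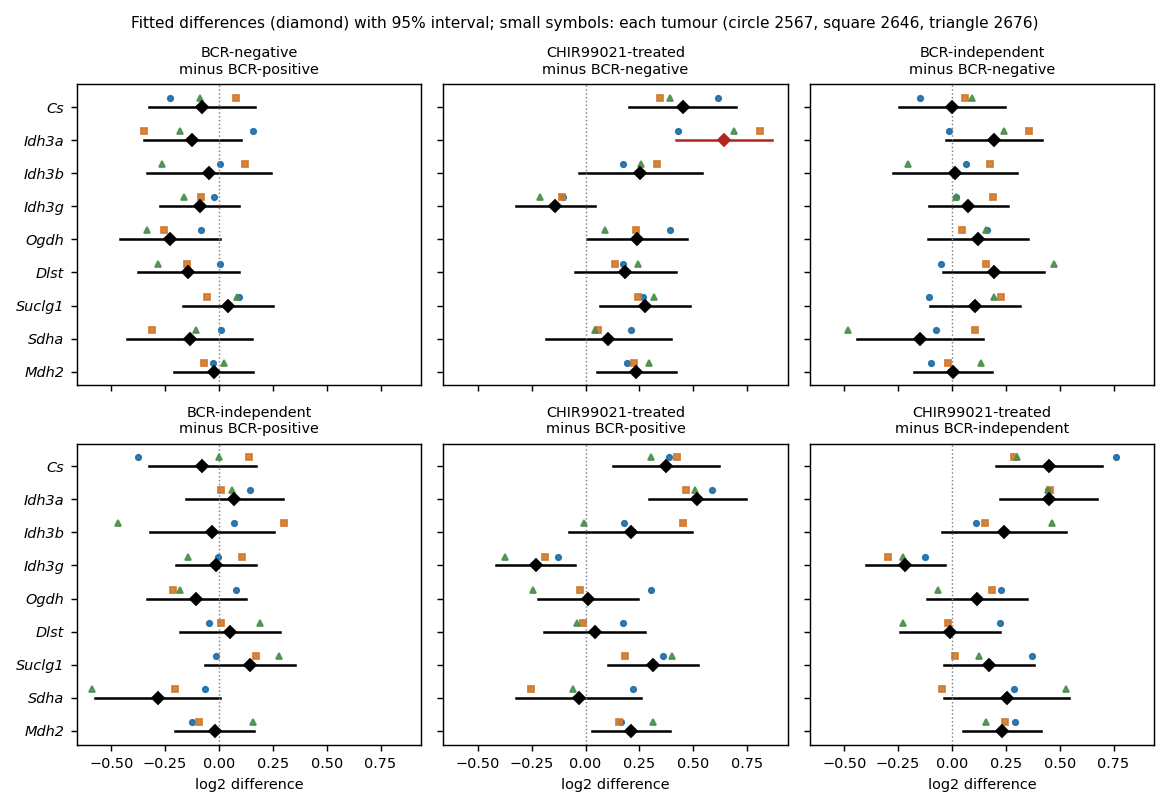
Fitted log2 differences (horizontal axes) of the 9 genes in the 6 comparisons of groups, with 95% intervals as lines, the fitted value as a diamond and each tumour's own difference as a small symbol. The interval drawn in red is that of Idh3a between treated and untreated BCR-negative cells, 0.42 to 0.87, the 1 call at an adjusted p under 0.05.

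The call of Idh3a did not survive several other settings, although its difference stayed between 0.56 and 0.75 in all of those tried. Its limma adjusted p was 0.216 without the tumour block, 0.0578 with only the groups compared in the fit, 0.143 with the title mark as a term, and 0.0571, 0.346 and 0.207 without tumour 2567, 2646 or 2676. Treated and untreated BCR-negative arrays of like title mark exist in tumour 2567 alone, where 8 of the 9 members were higher in treated cells with a median of 0.21. Of the 4 B lineage markers tested, 3 were lower in treated cells at an unadjusted p under 0.05, against 6.2% of all genes. Limma called 0 of them, against 1.91% of all genes, and their median difference was -0.44. The mean of the B lineage markers lay between 7.33 and 7.74 in treated and between 7.70 and 8.21 in untreated BCR-negative cells, that of the T cell markers between 3.15 and 3.26 and between 3.04 and 3.17, and that of the myeloid markers between 3.29 and 3.67 and between 3.15 and 3.46. The fibroblast markers had means between 3.33 and 3.59 in treated and between 3.31 and 3.48 in untreated cells, and the erythroid markers between 3.01 and 3.15 and between 2.95 and 3.13. The part of these differences in the result was not tested.

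**Figure D3:**
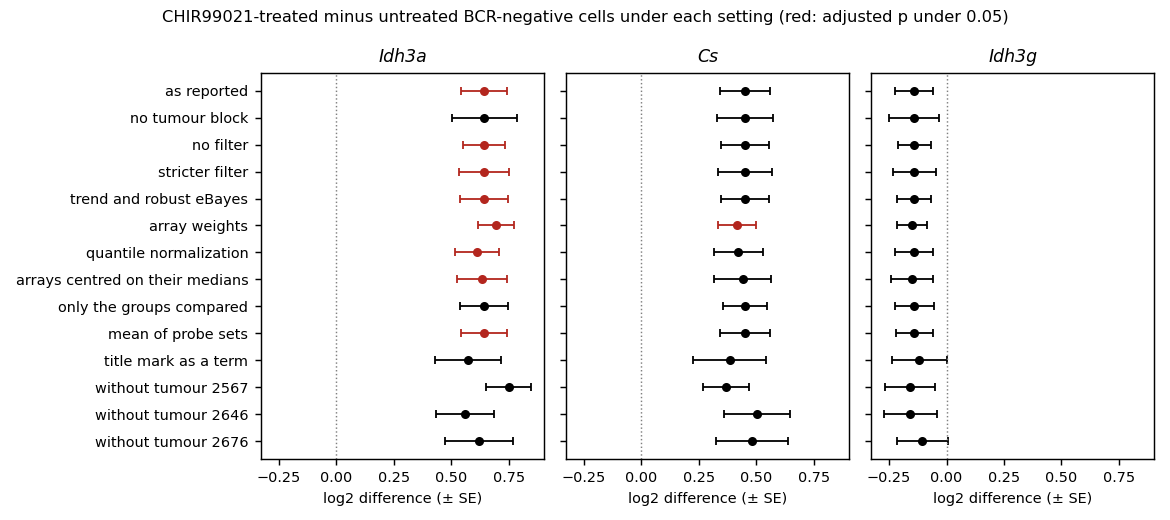
Log2 differences between treated and untreated BCR-negative cells (horizontal axes, same scale, whiskers are the SE) for Idh3a, Cs and Idh3g under the reported fit and 13 other settings (vertical axis), in red where the adjusted p was under 0.05. Idh3a stays between 0.56 and 0.75 and Cs between 0.37 and 0.50, while Idh3g stays below 0 in every setting shown.

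Treated cells were also set against the other groups, which share the treated arrays with the comparison above. Against BCR-positive cells 0 of 9 members were called by limma, where 0.802% of all genes were called. At an unadjusted p under 0.05, 4 members were higher and 1 lower, against 9.52% and 6.11% of all genes. Idh3a read 7.87, 7.94 and 7.71 in BCR-positive cells, below every treated array, and differed by 0.52 (SE 0.10, limma adjusted p = 0.0518). Cs read 9.40, 9.03 and 9.21 in BCR-positive cells and differed by 0.37 (limma adjusted p = 0.146). Idh3g read 9.90, 9.89 and 9.85 there, above every treated array, with a difference of -0.23 (SE 0.082, limma adjusted p = 0.211). Suclg1 and Mdh2 differed by 0.32 and 0.21, both higher in treated cells in 3 of 3 tumours. Ogdh and Dlst, at 0.012 and 0.042, did not share that direction across tumours.

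Between treated and BCR-independent cells, all 6 arrays carry no title mark. Of the 9 members 0 were called by limma, where 0.162% of all genes were called. At an unadjusted p under 0.05, 3 were higher and 1 lower, against 7.05% and 5.26% of all genes. Idh3a read 8.01, 7.95 and 7.77 in BCR-independent cells, and its difference was 0.44, 0.45 and 0.45 in the 3 tumours (fitted 0.45, SE 0.10, limma adjusted p = 0.145). Cs read 9.03, 9.17 and 9.21 in BCR-independent cells and differed by 0.76, 0.29 and 0.30 (fitted 0.45, SE 0.11, limma adjusted p = 0.155). Both were without overlap between the groups, 2 of 9 members against 4.27% of all genes. Mdh2 differed by 0.23 and Idh3g by -0.22, each in the same direction in 3 of 3 tumours. Over the 9 members the median difference was 0.23, beside 0.010 over all genes. The excess of the Idh3a over the Idh3g difference was 0.57, 0.75 and 0.67 within tumours here.

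Loss of the receptor was read from untreated BCR-negative against BCR-positive arrays of the mixed cultures. Limma called 0 of 9 members, where 0.00772% of all genes were called. At an unadjusted p under 0.05, 0 of 9 passed, against 1.47% of all genes higher and 1.71% lower. On average 8 of 9 members read lower, where 50.3% of all genes did, and without tumour 2676 Idh3b read higher, by 0.063. The median was -0.090 over the members and -0.00093 over all genes. The largest difference was that of Ogdh, which read 7.93, 8.25 and 8.15 in BCR-positive and 7.84, 7.99 and 7.82 in BCR-negative cells. Ogdh was lower in each tumour, by -0.086, -0.26 and -0.34, and its fitted difference was -0.23 (SE 0.10, 95% interval -0.46 to 0.0057, limma adjusted p = 0.999). Idh3g was the other member that was lower in all 3 tumours, at -0.024, -0.082 and -0.16, and 2 of 9 compares with 12% of all genes. Idh3a read lower in tumours 2646 and 2676, by -0.35 and -0.18, and higher in 2567, by 0.16. Suclg1 read higher on average, by 0.040. By tumour the median of the members was 0.0038 in 2567, -0.082 in 2646 and -0.16 in 2676.

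To ask what marks clones that persist without the receptor, the BCR-independent arrays were set against untreated BCR-negative ones. Limma called 0 of 9 members, where 0.00772% of all genes were called. At an unadjusted p under 0.05, 0 passed, against 3.6% of all genes higher and 2.38% lower. On average 8 of 9 members read higher, where 55.3% of all genes did, with a median of 0.076 beside 0.017 over all genes. Only 5 of 9 read higher with quantile normalization and 5 with centring, where the medians were 0.046 and 0.029. Over all genes the medians there were -0.0055 and -0.031. The members' median was 0.025 with the title mark as a term, beside 0.045 over all genes. Without tumour 2567, 2646 or 2676 the members' median was 0.10, 0.020 and 0.061, beside 0.014, 0.014 and 0.025 over all genes. With array weights it was 0.087, beside 0.015. Idh3a differed by 0.20 (SE 0.10, limma adjusted p = 0.821), with -0.014, 0.36 and 0.24 in the 3 tumours. Dlst differed by 0.19, with -0.05, 0.16 and 0.47, and was alike in the 3 clones, at 7.29, 7.29 and 7.28. Ogdh and Idh3g were the members higher in all 3 tumours, 2 of 9 against 16% of all genes, with fitted differences of 0.12 and 0.076. Sdha differed by -0.15, or 0.017 without tumour 2676, and clone 1 of tumour 2676, at 8.19, was the lowest of the 12 arrays for that gene, while clones 8 and 7 read 8.62 and 8.77. The same clone was the lowest array for Idh3b, at 9.31, against 9.87 and 10.08 in clones 8 and 7.

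Against BCR-positive cells, BCR-independent clones again gave 0 of 9 calls by limma, where 0.0849% of all genes were called. At an unadjusted p under 0.05, 0 of 9 passed, against 5.38% of all genes higher and 4.24% lower. The median over the members was -0.020, which became 0.032 without tumour 2567 and -0.051 without tumour 2646. It was -0.072 with quantile normalization, -0.073 with centring on array medians and -0.0040 once the title mark was a term. Over all genes the median was 0.022 in the reported fit, -0.0052 with quantile normalization, -0.030 with centring and 0.041 with the title mark. Idh3a was higher in 3 of 3 tumours, by 0.14, 0.010 and 0.061. Sdha was lower in each tumour, by -0.064, -0.21 and -0.59, with a fitted difference of -0.29 (SE 0.13, 95% interval -0.58 to 0.0051, limma adjusted p = 0.520). The BCR-negative and BCR-positive arrays enter several of these comparisons, so the comparisons are not independent of each other. For Cs the 95% interval between clones and BCR-positive cells ran from -0.32 to 0.17, and for Mdh2 from -0.20 to 0.16.

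How a member's variation divided between tumours and groups differed among the 9 genes. For Idh3a and Cs, 74.7% and 73% of the sum of squares lay between groups and 17.5% and 8.74% between tumours. For Suclg1 the order was the other way, with 72.7% between tumours and 20.8% between groups. Dlst, Idh3b and Mdh2 also varied mainly between tumours, at 54.5%, 54.3% and 53.2%, with 37.8% between groups for Mdh2. The median over all genes was 39.8% between tumours and 20.7% between groups. After each tumour's mean was taken out, 27 of the 36 pairs of members had a correlation above 0 over the 12 arrays, with a median of 0.33. The highest was that of Cs and Mdh2, at 0.85, and the lowest that of Idh3g and Mdh2, at -0.83. Over the 9 arrays without CHIR99021 24 of 36 pairs lay above 0, with a median of 0.18. These correlations are descriptions over arrays that share tumours and cultures.

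The genes most like the mean of the 9 members over the 12 arrays, after tumour means were taken out, were Wdr46 (r = 0.97), a nucleolar protein, Ctsc (r = 0.96), the lysosomal protease cathepsin C, Prelid3b (r = 0.95), Pmm1 (r = 0.95), a phosphomannomutase, and Txn2 (r = 0.95), the mitochondrial thioredoxin. Wdr46 read 8.26 in untreated and 8.81 in treated BCR-negative cells, and Txn2 8.06 and 8.45 (means, n = 3). Between these groups limma called Wdr46, Ctsc and Pmm1 higher in treated cells (adjusted p = 0.0268, 0.0322 and 0.0470). Prelid3b and Txn2 were not called (limma adjusted p = 0.110 and 0.106). The 12 arrays that ranked these genes include the treated ones.

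The other genes of the cycle gave no calls under CHIR99021, where 1.91% of all genes were called. Of the 9 such genes tested, 6 read higher and 3 lower, where 56.7% of all genes read higher, and their median was 0.096. In all 3 tumours 5 of the 9 were higher and 0 lower, against 25.7% and 15.8% of all genes. Sdhc, a membrane anchor of succinate dehydrogenase, read 6.89, 7.16 and 6.92 in untreated and 7.43, 7.98 and 7.06 in treated BCR-negative cells, a difference of 0.50 (SE 0.18, limma adjusted p = 0.206). Its partners Sdhb, the iron-sulfur subunit, and Sdhd, the other anchor, differed by 0.096 and 0.14. Dld, the dihydrolipoyl dehydrogenase that Ogdh and Dlst work with, differed by 0.23 (SE 0.13, limma adjusted p = 0.439) without overlap of the groups, and by 0.054 once the title mark was a term. Suclg2 and Sucla2, the GTP- and ATP-specific partners of Suclg1, differed by -0.0055 and 0.071. Within the same arrays the shift of Suclg1 exceeded that of Suclg2 by 0.29, 0.24 and 0.31, with an exact two-sided sign-flip permutation p of 0.25, the smallest possible, in a pair chosen after the values were seen. Fh1, fumarase, differed by 0.21.

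In the steps that lead pyruvate into the cycle, 10 of 13 listed genes were tested. Limma called 0 higher and 1, Pcx, lower, against 1.06% and 0.849% of all genes. Among the 10 genes, 3 were higher and 2 lower, Pcx included, at an unadjusted p under 0.05, against 10.4% and 6.2% of all genes. In all 3 tumours 4 were higher and 4 lower, against 25.7% and 15.8% of all genes. Pcx, the pyruvate carboxylase that makes oxaloacetate, read 4.91, 4.93 and 5.18 in untreated and 3.95, 4.20 and 4.24 in treated BCR-negative cells. All treated arrays lay below all untreated arrays of every group, and Pcx changed by -0.88 (SE 0.15, limma adjusted p = 0.0322). That call was lost without the tumour block (adjusted p = 0.0818), with the title mark as a term (0.185) and without tumour 2567, 2646 or 2676 (0.0579, 0.342 and 0.194). Against BCR-positive cells Pcx differed by -0.78 (limma adjusted p = 0.0507).

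Of 12 genes of anaplerosis and of cytosolic or NADP-linked counterparts, 10 were tested and 0 were called by limma, against 1.91% of all genes. At an unadjusted p under 0.05, 2 were higher and 0 lower, against 10.4% and 6.2% of all genes. The fitted difference was above 0 for 10 of 10, where 56.7% of all genes were, with a median of 0.20 and a lowest value of 0.0029. In all 3 tumours 5 of 10 were higher, against 25.7% of all genes. Among 6 carriers of cycle intermediates 5 were tested and 1 was called higher, against 1.06% of all genes. This was Slc25a12, the aspartate and glutamate carrier of the inner membrane. Slc25a12 read 6.60, 7.51 and 6.51 in untreated (6.87 ± 0.56, SD, n = 3) and 8.09, 8.53 and 7.35 in treated BCR-negative cells (7.99 ± 0.60). The groups overlapped, since tumour 2646 was high in both, and every tumour was higher in treated cells, a change of 1.12 (SE 0.22, limma adjusted p = 0.0439). Its adjusted p was between 0.00436 and 0.490 over the other settings, and 8 of 13 ended the call. The 6 of 7 tested genes of lipoylation and succinate dehydrogenase assembly and the 8 of 9 tested regulators of mitochondrial gene expression gave 0 calls by limma, with medians of 0.12 and 0.031. At an unadjusted p under 0.05, the first of these lists had 2 higher and 1 lower and the second 1 higher and 0 lower. The shares of all genes at that p were 10.4% higher and 6.2% lower.

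**Figure D4:**
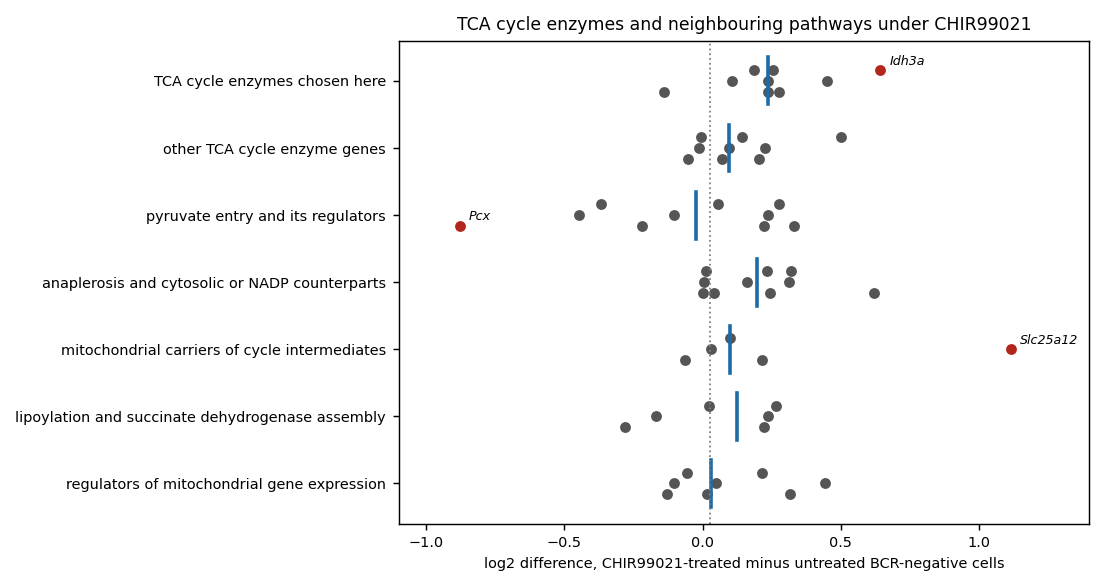
Log2 differences between treated and untreated BCR-negative cells (horizontal axis) for the genes of 7 lists (vertical axis), 1 point per gene, with genes at an adjusted p under 0.05 in red and named, list medians as blue bars and the median of all genes tested, 0.026, as a dotted line. The bar of the 9 enzymes described here lies at 0.24 and that of the pyruvate list at -0.024.

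In the other 5 comparisons of groups, limma called 0 of the 48 tested genes of these 6 neighbouring lists. Of all genes it called between 0.00772% and 0.802% there. Between 2 and 9 of the 48 had an unadjusted p under 0.05. At that p, between 1.47% and 9.52% of all genes were higher and between 1.71% and 6.11% lower in these comparisons.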

How the data were processed

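One table of log2 signals, deposited by the authors, covers 12 arrays (Affymetrix Mouse Gene 1.1 ST) and 35556 probe sets. The submitters' processing notes name RMA and Affymetrix Power Tools, without versions. RMA corrects background, brings arrays to 1 distribution and summarises probes, which compresses differences of dim probe sets. All columns had a sample.

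The platform annotation gave 21218 probe sets a single symbol, 1881 several and 12457 none. Symbols were updated by Entrez ID through a RefSeq table (GRCm38.p6), which held 21185 of the single symbols. Probe sets had to exceed the 40th percentile of their array on 3 or more arrays. Each gene took the brightest such probe set, leaving 12961 genes. Group and tumour were fitted with limma 3.58.1 under R 4.3.3, using lmFit and eBayes with 6 residual and 3.41 prior degrees of freedom, and p-values were adjusted by the Benjamini-Hochberg method over all genes in each of 6 comparisons. The fit was tested on simulated data whose planted changes were larger than any member difference reported here. That test does not cover differences of the members' size. The tumour number, from the labels, pairs arrays across groups: residuals correlated between 0.284 and 0.792 within a tumour and between -0.716 and 0.165 across tumours. These residuals were taken after group means alone. With 3 arrays a group, that step by itself pushes correlations between arrays of the same group below 0. P-values rest on how far group differences vary between these 3 tumours once tumour means are taken out, pooled over the 4 groups. Precision is limited by having 3 arrays a group.

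The 9 members and all lists were chosen with earlier results of these data known. List genes are named if called in any comparison, if they are partner subunits of a member, or if they alone catalyse a step without a member. The 5 genes most like the members' mean were taken by Pearson correlation. Settings varied were the tumour block, the filter (none, or the 60th percentile), the variance prior, array weights, quantile normalization, centring, the arrays fitted, the averaging of probe sets, the title mark and each tumour left out.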

Additional observations from a re-analysis of the deposited data

How the results depend on the processing

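Between treated and untreated BCR-negative cells, each of the 9 members kept its direction in the 13 other settings. Members called there numbered 1 in the reported fit, 0 without the tumour block, 0 with only the groups compared, 0 with the title mark as a term, 0 without each tumour in turn and 4 with array weights (Cs, Idh3a, Suclg1 and Mdh2). Without the block, which ignores the pairing by tumour, the adjusted p of Idh3a was 0.216. Against BCR-positive cells array weights called 1 member, Idh3a, where 168 of all 12961 genes were called. The median of the members under CHIR99021 moved from 0.24 to 0.27 with the title mark, and that of all genes from 0.026 to 0.059. Against BCR-positive cells the members' median ran from 0.087 to 0.22 when a tumour was left out. In BCR-independent against BCR-positive cells it moved from -0.020 to -0.072 with quantile normalization, -0.073 with centring and -0.0040 with the title mark. It ran from -0.051 to 0.032 when a tumour was left out. There the median over all genes moved from 0.022 to -0.0052 with quantile normalization, -0.030 with centring and 0.041 with the title mark.

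Directions that turned were of small, uncalled differences. In BCR-independent against BCR-negative cells, quantile normalization gave Cs -0.033, Idh3b -0.00207 and Mdh2 -0.024, centring gave -0.046, -0.034 and -0.042, and the title mark gave Cs -0.066, Sdha 0.015 and Mdh2 -0.070. In BCR-independent against BCR-positive cells, array weights gave Idh3g 0.0028, centring gave Dlst -0.00175, and the title mark gave Idh3g 0.0085, Ogdh 0.062 and Dlst -0.0040. In treated against BCR-positive cells, Ogdh was -0.037 with quantile normalization and -0.0023 with centring, and the title mark gave Dlst -0.012 and Sdha 0.13. Against BCR-independent cells centring gave Dlst 0.029. Under CHIR99021 the title mark gave Suclg2 0.049, a gene examined under these settings after its values were seen, as were the other list genes.

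With a tumour left out, differences that turned ran as follows. Idh3b ran from -0.13 to 0.063 in BCR-negative against BCR-positive cells. In BCR-independent against BCR-negative cells, Cs ran from -0.045 to 0.076, Idh3b from -0.069 to 0.12, Sdha from -0.28 to 0.017 and Mdh2 from -0.060 to 0.057. In BCR-independent against BCR-positive cells, Cs ran from -0.19 to 0.071, Idh3b from -0.20 to 0.19, Idh3g from -0.075 to 0.052, Dlst from -0.019 to 0.099 and Mdh2 from -0.11 to 0.032. In treated against BCR-positive cells, Ogdh ran from -0.13 to 0.14, Dlst from -0.025 to 0.083 and Sdha from -0.16 to 0.081. Dlst ran from -0.12 to 0.10 against BCR-independent cells. Under CHIR99021, Suclg2 ran from -0.014 to 0.004255 and Sucla2 from -0.0082 to 0.14.

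Over all genes, calls under CHIR99021 numbered 248 (138 higher, 110 lower), 192 with centring (84 and 108), 12 without the block, 1635 with array weights, 109 with only the groups compared, 32 with the title mark, and 17, 1 and 10 without tumours 2567, 2646 and 2676. Against BCR-positive cells they numbered 104 (46 higher, 58 lower), 140 with centring (47 and 93), 7 without the block, 168 with array weights, 0 with only the groups compared, 8 with the title mark, and 19, 4 and 15 without a tumour. Against BCR-independent cells the 21 calls became 5 without the block, 39 with array weights, 33 with quantile normalization, 1 with only the groups compared, 33 with the title mark, and 0, 2 and 12 without tumours 2567, 2646 and 2676. The 11 calls of BCR-independent against BCR-positive cells became 4 without the block, 3 with array weights, 1 with only the groups compared, and 4, 4 and 1 without a tumour. The other comparisons had 1 call each and between 0 and 3 elsewhere. The cause was not tested.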
